A study of Mus musculus with 18 samples.

Results

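The liver of untreated Lipa-/- mice was compared between 34 and 12 weeks. The members were the 6 untreated Lipa-/- mice among the 18 mice of the series, chosen by their labels: mice 4, 5 and 6 labelled 8months, here 34 weeks, and mice 8, 9 and 5 labelled 3months, here 12 weeks. Weeks count from the injection day of the treated cohorts, and the labels give no age. RNA was selected for poly(A) and sequenced, and 14535 of the 35441 genes in the table, those whose reads over the 18 mice came to more than 100, were tested.

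All Lipa-/- mice, treated or not, carry a germline deletion of exon 4 of Lipa on a C57/BL6N background, made by crossing the tm1a allele with CMV-Cre mice, and the methods name males on standard chow. The untreated Lipa-/- mice and the wild-type (WT) mice, 3 of each at both time points, have the treatment label none. The treated Lipa-/- mice, 3 at both time points, received rAAV8.hAAT.LIPA, a vector that carries human LIPA with an HA tag under the hepatocyte-specific hAAT promoter. According to the methods, most untreated Lipa-/- mice of the long follow-up reached a humane endpoint early, so the true sampling age of the animals labelled 34 weeks is not known here. All 34-week mice of the series share 1 study code and the 12-week mice carry others, with mouse 5 of the 12-week Lipa-/- group under a code of its own. The time point and the study code therefore cannot be told apart in any comparison of 34 with 12 weeks.

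Lysosomal acid lipase, the product of Lipa, hydrolyses cholesteryl esters and triglycerides that reach the lysosome. Without it these lipids build up in hepatocytes and in Kupffer cells, the resident macrophages of the liver, and the organ enlarges. Hepatocytes carry most of the organ's metabolic work, such as urea synthesis, drug and steroid oxidation by cytochrome P450 enzymes, bile acid handling and the secretion of plasma proteins. Stellate cells lie beside the sinusoids and are the main producers of fibrillar collagen in a scarring liver.

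Levels are given in CPM, reads of a gene scaled to a library of common size, after TMM scaling, which corrects for differences in library composition, and in the mouse order 8, 9 and 5 at 12 weeks and 4, 5 and 6 at 34 weeks. CPM values of different genes are not comparable, since they are not divided by length. Changes are log2 fold changes of 34 against 12 weeks ± SE, from edgeR's quasi-likelihood test on the estimated counts of all 18 mice. A gene was called higher or lower when its Benjamini-Hochberg adjusted p was under 0.05 and its log2 fold change was beyond 1 in size. The 6 libraries held 18178036 to 23008642 reads. Their TMM factors were 1.16 to 1.23 at 12 weeks and 1.37 to 1.69 at 34 weeks, and mitochondrial transcripts took 2.67% to 6.82% and 5.68% to 5.73% of the reads.

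Lipa, the deleted gene, stood at 33.4, 24.3 and 16.7 CPM in the 12-week Lipa-/- mice and at 18.2, 19.7 and 19 CPM in the 34-week ones, against 202 to 267 CPM and 283 to 323 CPM in the WT mice. No read of the human LIPA transgene was counted in the 6 untreated mice. Albumin (Alb), the most abundant hepatocyte marker, ranged from 12511 to 38576 CPM over the 6 mice, and none of the 11 measured hepatocyte markers was near 0. The mouse labelled 34 weeks, number 4, stood apart in its Y-linked transcripts. It had 0 reads of Ddx3y, where the other 17 mice had 961 to 1803, and 0 reads of Eif2s3y, where they had 633 to 1366. Kdm5d gave 33 reads (138 to 396 in the other mice) and Uty gave 18 (151 to 520), and a count of 0 reads allows up to 0.0946 CPM in this library. Their X-linked partners Kdm6a, Eif2s3x and Ddx3x stood at 13.8, 76.2 and 115 CPM, within the range of the other mice. In reads, before scaling, mouse 4 was above all other mice in these 3. It had 439 reads of Kdm6a (175 to 320 in the others), 2417 of Eif2s3x (610 to 2004) and 3644 of Ddx3x (838 to 3555). The X-linked Kdm5c, with 1082 reads (37 to 1255), was within the range. The methods name male mice, so this library goes against that description, and the main counts are given with and without it.

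The livers of the 6 mice were alike in rank order. Spearman's rho of gene levels was 0.933 to 0.974 within the 12-week mice, 0.975 to 0.983 within the 34-week mice and 0.929 to 0.969 between them, a description over 14535 genes of the same tissue. In a principal component analysis of log2 CPM, the first component held 40.6% of the variance, with scores of -37.6, -58.2 and -2.67 at 12 weeks and 52.0, 38.3 and 8.11 at 34 weeks. Mouse 5 of the 12-week group and mouse 6 of the 34-week group lay closest to each other on this axis.

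By edgeR's quasi-likelihood test 72 genes were called at 34 weeks, which is 0.495% of the 14535 tested, 67 of them lower (0.461%) and 5 higher (0.0344%). Upper quartile scaling gave 51 lower and 17 higher, and total counts without TMM 18 and 4. The lower genes included carboxylesterases of the Ces3 and Ces1 groups, cytochrome P450 enzymes and conjugating enzymes, with levels 2.02- to 15.3-fold lower at 34 weeks. The 5 higher genes were Ace, Dab2, Igf2, Prrg3 and Rtn4rl2. In each of the 72 genes the 3 mice of one time point lay wholly outside the 3 of the other, while over all genes tested 16% had every 34-week mouse below every 12-week mouse and 11.4% the reverse. Before adjustment, 1448 genes (9.96%) were lower and 817 (5.62%) higher at p under 0.05, and the median log2 fold change over all genes was -0.04. This split depended on the scaling: upper quartile scaling gave 1011 lower and 1170 higher, and total counts without TMM 550 and 1882. The shares of all genes given beside the lists are those with TMM. In whole liver, fewer cells of a type and less RNA per cell cannot be told apart.

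The number of calls and their split between higher and lower depended on the tool and on single mice. The 72 genes kept their direction in every alternative. They were selected in these same mice and did not overlap between time points, so this is no independent check. DESeq2 with gene length offsets called 160 genes higher and 233 lower, including 71 of the 72. On the 6 Lipa-/- mice alone edgeR called 0 genes, with 1528 higher and 1505 lower at an unadjusted p under 0.05. On the same 6 mice DESeq2, in a fit added after the data were seen, called 365 higher and 243 lower, including 70 of the 72. Without mouse 4 of the 34-week group, edgeR's quasi-likelihood test called 4 genes, all lower: Ces1f, Ces3b, Cyp1a2 and Nat8, each with a Benjamini-Hochberg adjusted p of 0.0428. Without that mouse, all 72 genes kept their direction with an unadjusted p under 0.05, and the median log2 fold change of the 67 lower genes was -1.27, against -1.44 with it. DESeq2 without mouse 4 called 92 genes lower and 0 higher, with 382 genes higher at an unadjusted p under 0.05. Among the 34-week mice, mouse 6 was the highest in 59 of the 67 lower genes and mouse 4 the lowest in 46, and among the 12-week mice, mouse 8 was the highest in 47 and mouse 9 the lowest in 46.

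**Figure D1:**
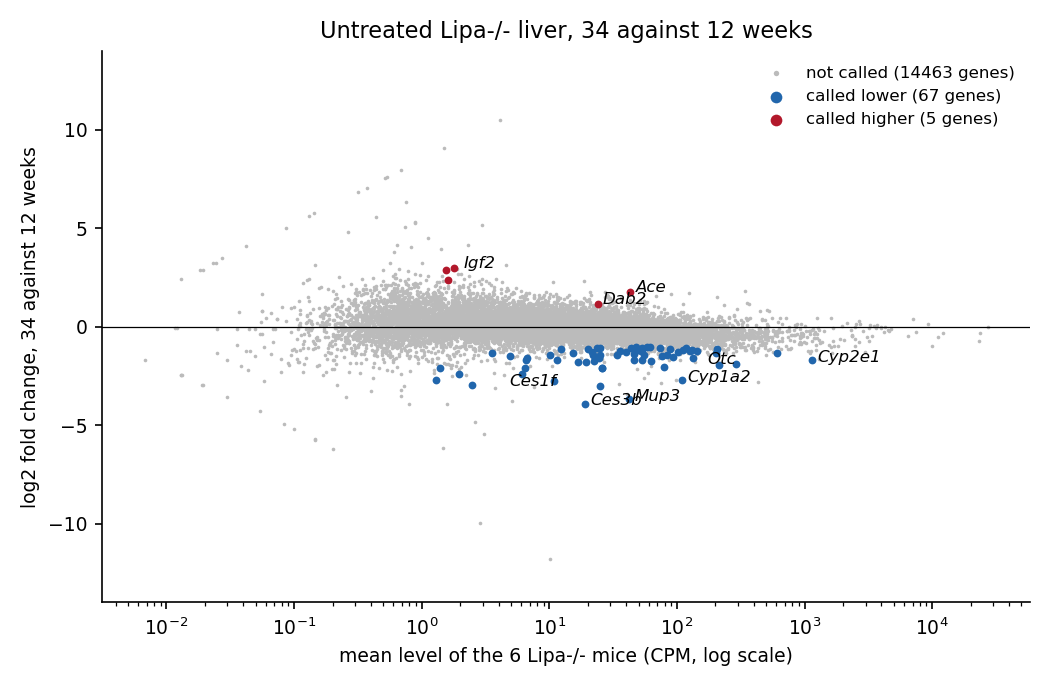
Log2 fold change of 34 against 12 weeks (vertical axis) against the mean CPM of the 6 Lipa-/- mice (horizontal axis, log scale) for each gene tested, except 22 genes with 0 reads in all 6 mice. The 67 genes called lower (blue) lie below the zero line over a wide range of levels, and the 5 called higher (red) include Igf2, Ace and Dab2.

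The lower genes included 4 carboxylesterases and lipases, of which the carboxylesterases are hydrolases of the endoplasmic reticulum that act on ester drugs and on stored lipids. Ces3b, on chr8:105810253-105820561 (GRCm39, plus strand), stood at 52.8, 13.5 and 40.5 CPM in the 12-week mice and at 1.58, 1.58 and 3.82 CPM in the 34-week mice. Every 34-week mouse was far below every 12-week mouse, and both groups were below the WT mice, at 443 to 634 CPM at 12 weeks and 181 to 272 CPM at 34 weeks. The log2 fold change was -3.93 ± 0.455 (SE, n = 3 against 3, edgeR's quasi-likelihood test with Benjamini-Hochberg adjustment, adjusted p = 0.00212). Ces1f, on chr8:93981999-94006375 (minus strand), fell from 19.4, 11.5 and 25.9 CPM to 2.11, 2.74 and 3.53 CPM, where the WT mice held 404 to 450 CPM and 371 to 583 CPM. Ces3a went from 451, 189 and 372 CPM to 72.4, 120 and 66.4 CPM, with no overlap between the time points. Lipc, the hepatic lipase that acts on circulating lipoproteins, fell by 1.44 on the log2 scale. Ces3a, Ces3b and Lipc were the 3 called members among the 20 measured lipid droplet proteins and lipases, a list with 5 members above 0 and a median log2 fold change of -0.35 (-0.28 without mouse 4). Over all genes, 0.461% were called lower. The Ces genes are close copies in tandem, and how their shared reads were split among them is uncertain.

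Of the lower genes, 6 belong to the cytochrome P450 family, the haem enzymes that oxidise drugs, steroids and fatty acids. Cyp1a2, on chr9:57584196-57590986 (minus strand), which oxidises caffeine and aromatic amines, stood at 187, 171 and 213 CPM at 12 weeks and at 21.8, 20.8 and 44.2 CPM at 34 weeks. The 3 12-week mice were close to each other, and the highest 34-week mouse was well below the lowest 12-week mouse. Its log2 fold change was -2.72 ± 0.335 (n = 3 against 3, edgeR's quasi-likelihood test with Benjamini-Hochberg adjustment, adjusted p = 0.00248). Cyp2c54, on chr19:40025117-40062282 (minus strand), went from 63.7, 28.3 and 41.6 CPM to 5.36, 3.56 and 7.57 CPM. Cyp2e1, on chr7:140343652-140355167 (plus strand), which oxidises ethanol, went from 2250, 887 and 2135 CPM to 653, 620 and 336 CPM, and its highest 34-week mouse was close to its lowest 12-week mouse. Cyp4f14, Cyp2d13 and Cyp3a25 had log2 fold changes of -1.68, -1.82 and -1.15. Of the 33 measured members of a list of P450 families 1 to 3, drawn up with results of these data known, 4 were called, all lower, against 0.495% of all genes. The list did not hold every gene of these families, and Cyp2d13 was not on it. The list's median log2 fold change was -1.01, against -0.04 over all genes, and -0.88 without mouse 4.

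Enzymes that conjugate drugs, bile acids and fatty acyl groups made up 9 of the lower genes. Nat8, on chr6:85807364-85809664 (minus strand), an acetyltransferase of cysteine conjugates, stood at 9.51, 11.7 and 9.97 CPM at 12 weeks and at 1.55, 2.59 and 3.16 CPM at 34 weeks. The 12-week mice were close to each other, and every 34-week mouse lay below them. The log2 fold change was -2.10 ± 0.281 (n = 3 against 3, edgeR's quasi-likelihood test with Benjamini-Hochberg adjustment, adjusted p = 0.00391). Ugt2b1, a glucuronosyltransferase, went from 60.4, 23.9 and 42.2 CPM to 10.1, 7.50 and 11.9 CPM, and Keg1, of the acyltransferase group, from 11.7, 7.88 and 11.4 CPM to 1.77, 1.08 and 3.01 CPM. The sulfotransferase Sult2a8 was already low at 12 weeks, at 7.65, 3.60 and 1.99 CPM where the WT mice held 726 to 1122 CPM, and fell to 0.505, 0.464 and 0.735 CPM. The others were Nat8f5, Gstm6, Gstk1, Acsm1 and Acsm5. In the list of phase II conjugation genes, also drawn up with results known, 5 of 41 measured members were called, all lower, against 0.461% of all genes. Its median was -0.88 (-0.82 without mouse 4). Members of the Ugt2b, Gst and Sult2a families share reads, and their separate values are uncertain.

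**Figure D2:**
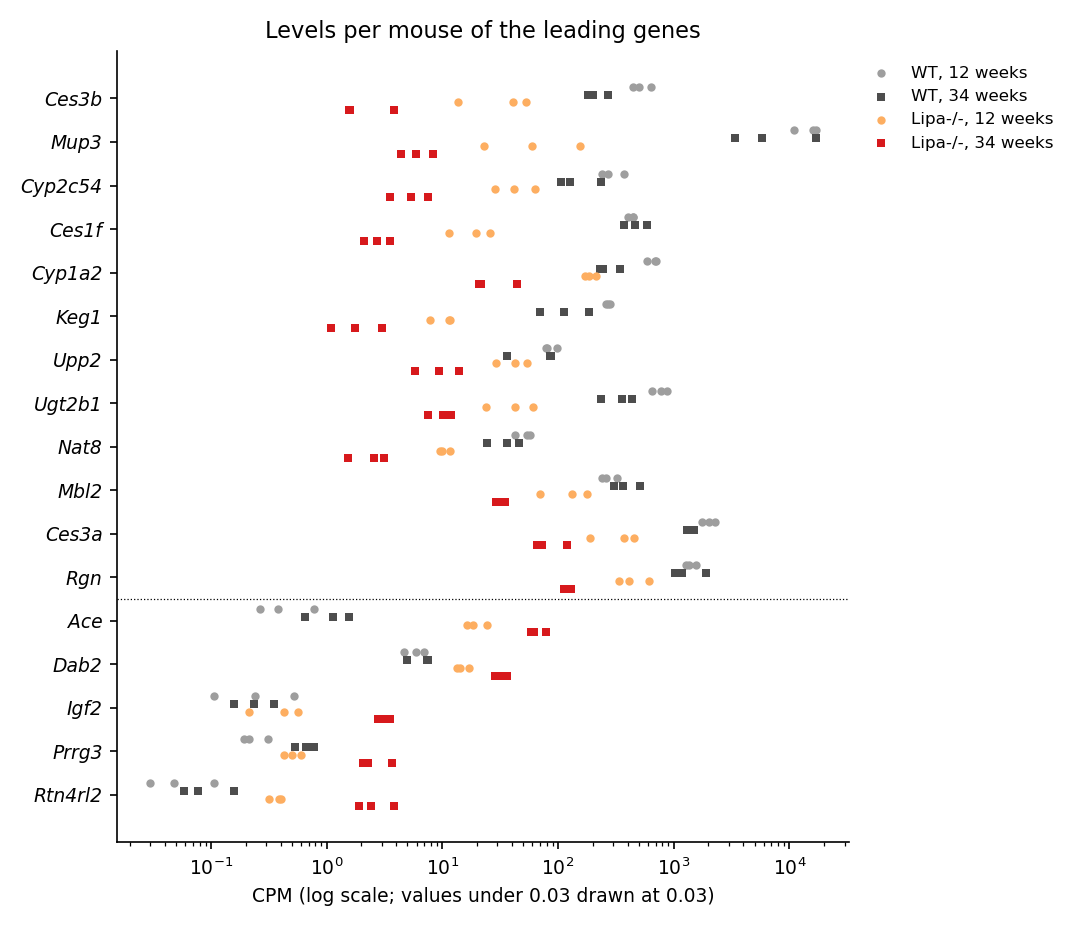
CPM (horizontal axis, log scale) of each mouse for the 12 lower genes with the largest fold change at 5 CPM or more and the 5 higher genes, in WT (grey) and untreated Lipa-/- mice (orange and red) at 12 weeks (circles) and 34 weeks (squares). In every row the 3 red squares lie outside the 3 orange circles, and for Ces3b, Ces1f and Ugt2b1 the Lipa-/- mice of both time points lie below the WT mice.

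Another 10 of the lower genes act in amino acid and urea metabolism, with log2 fold changes of -1.76 to -1.04. Otc, on chrX:10118503-10187265 (plus strand), which makes citrulline in the urea cycle, stood at 216, 214 and 170 CPM at 12 weeks and at 45.8, 50.6 and 105 CPM at 34 weeks. Mouse 6 was the highest 34-week mouse and still below every 12-week mouse, and the log2 fold change was -1.57 ± 0.330 (n = 3 against 3, edgeR's quasi-likelihood test with Benjamini-Hochberg adjustment, adjusted p = 0.0435). Car5a, the mitochondrial carbonic anhydrase that supplies bicarbonate to the cycle, went from 18.7, 17.1 and 16.9 CPM to 3.97, 4.06 and 8.20 CPM. Hpd of tyrosine breakdown went from 935, 608 and 1047 CPM to 247, 309 and 475 CPM. Kmo and Kynu of tryptophan breakdown had log2 fold changes of -1.19 and -1.07, and Prodh2, which oxidises hydroxyproline, of -1.76. Gcdh, Slc25a21, Aspdh and Mpst completed the group. Ass1, the argininosuccinate synthase, was not called, at 2629, 2672 and 1769 CPM against 604, 649 and 1498 CPM. Of the 36 members of the urea cycle and amino acid catabolism list, 3 were called, all lower, against 0.461% of all genes. At an unadjusted p under 0.05, 31 were lower, where 9.96% of all genes were. The list's median was -1.08, or -0.89 without mouse 4.

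The remaining lower genes with a known role in hepatocytes fell into smaller groups. Slc10a1, on chr12:80996372-81015479 (minus strand), the sodium-dependent bile acid carrier of the sinusoidal membrane, went from 162, 130 and 129 CPM to 37.7, 36.3 and 68.3 CPM. Slc27a5, which activates bile acids with coenzyme A, and the organic anion carrier Slc22a30 had log2 fold changes of -1.14 and -1.43. All 3 genes were lower in every 34-week mouse than in any 12-week mouse. In cholesterol synthesis, Tm7sf2 and Ebp had log2 fold changes of -1.42 and -1.22, and the peroxisomal genes Hacl1, Pecr, Pxmp2 and Decr2 of -1.47 to -1.02. Adh4, Rdh5 and Adhfe1, which oxidise alcohols or retinol, had log2 fold changes of -1.59, -1.32 and -1.27. Among secreted proteins, Mbl2, the mannose-binding lectin that starts complement activation, went from 180, 70.2 and 133 CPM to 29.8, 29.3 and 34.9 CPM, and Pon1, the paraoxonase carried by high-density lipoprotein, from 327, 248 and 299 CPM to 89.7, 126 and 126 CPM. Mup3, a major urinary protein, went from 154, 22.8 and 59.4 CPM to 8.23, 5.91 and 4.37 CPM, where the WT mice held 3392 to 17068 CPM, and reads of the near-identical Mup genes cannot be assigned with certainty. Afm, Notum, Apol7a and Apol9b were the other lower genes of this group. A further 19 lower genes, with log2 fold changes of -2.39 to -1.08, belong to none of these groups; among them, Rgn, a calcium-binding lactonase, went from 616, 335 and 411 CPM to 124, 130 and 113 CPM. The grouping by role was made after the values were seen.

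The 5 higher genes included 3 that stayed under 5 CPM. Ace, on chr11:105858469-105880790 (plus strand), the angiotensin-converting enzyme, stood at 18.4, 24.2 and 16.3 CPM at 12 weeks and at 79.3, 58.7 and 62 CPM at 34 weeks. Every 34-week mouse was more than 2 times the highest 12-week mouse, and the WT mice held 0.268 to 0.785 CPM at 12 weeks and 0.649 to 1.58 CPM at 34 weeks. The log2 fold change was 1.76 ± 0.319 (n = 3 against 3, edgeR's quasi-likelihood test with Benjamini-Hochberg adjustment, adjusted p = 0.0222). Dab2, on chr15:6329269-6470196 (plus strand), an endocytic adaptor, went from 13.4, 17 and 14.3 CPM to 33.1, 36.5 and 28.7 CPM (log2 fold change 1.14). Igf2, the insulin-like growth factor of fetal liver, went from 0.427, 0.566 and 0.213 CPM to 2.78, 3.52 and 3.16 CPM, and Prrg3 and Rtn4rl2 rose by 2.38 and 2.86 on the log2 scale from levels under 1 CPM. Prrg3 and Rtn4rl2 fall below the level set for naming genes and were named after their values were seen. Without mouse 4, edgeR's quasi-likelihood test called 0 genes higher, these 5 included, with 384 genes higher at an unadjusted p under 0.05, and DESeq2 called 0 as well.

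Promoter sequences are shown for 3 of the lower genes, chosen because they hold the letters of a motif of liver transcription factors. RefSeq promoters (250 bases before to 50 after the start, GRCm38.p6, a build other than that of the counts) were found for 55 of the 67 lower genes and 10986 of all genes tested. They were searched on both strands for 5 motifs, of which CEBP (TTGCNNAAT) is marked here. Capitals mark the CEBP match in each. The windows are Prodh2 at chr7:30493408-30493707 (plus strand), Pon1 at chr6:5193897-5194196 (minus strand) and Cyp3a25 at chr5:146009569-146009868 (minus strand).
Prodh2: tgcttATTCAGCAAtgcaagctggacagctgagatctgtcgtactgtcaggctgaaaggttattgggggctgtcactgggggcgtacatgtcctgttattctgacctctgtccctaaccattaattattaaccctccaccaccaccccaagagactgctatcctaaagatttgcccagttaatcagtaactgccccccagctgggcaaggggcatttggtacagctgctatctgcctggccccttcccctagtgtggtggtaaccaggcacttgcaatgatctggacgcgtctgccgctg
Pon1: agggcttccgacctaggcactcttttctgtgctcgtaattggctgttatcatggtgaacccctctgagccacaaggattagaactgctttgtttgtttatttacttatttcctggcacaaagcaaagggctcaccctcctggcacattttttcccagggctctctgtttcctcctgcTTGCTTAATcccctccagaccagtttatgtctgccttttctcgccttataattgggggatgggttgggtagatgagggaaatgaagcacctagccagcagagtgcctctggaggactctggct
Cyp3a25: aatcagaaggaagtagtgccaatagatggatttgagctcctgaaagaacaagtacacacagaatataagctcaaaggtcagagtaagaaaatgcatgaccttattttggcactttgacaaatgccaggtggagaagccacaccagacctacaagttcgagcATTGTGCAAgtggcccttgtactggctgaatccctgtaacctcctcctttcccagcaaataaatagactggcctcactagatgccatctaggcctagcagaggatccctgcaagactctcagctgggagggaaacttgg
The CEBP letters stood in 5 of the 55 promoters (9.09%; Pbld2, Prodh2, Pon1, Gcdh and Cyp3a25), against 1.9% of the promoters of all genes tested. The HNF4A letters (CAAAGTCCA) stood in 1 (1.82%, against 0.492%), SREBP (TCACNCCAC) in 1 (1.82%, against 1.13%) and AHR (TNGCGTG) in 1 (1.82%, against 7.91%), and NR5A2 (CAAGGTCA) in 0, against 1.05%. A match is a description of these windows and not evidence of binding, and no test was made.

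Across the broader lists, metabolic genes of the hepatocyte had medians below that of all genes, while few members were called. Over all genes, 0.461% were called lower and 9.96% were lower at an unadjusted p under 0.05. All lists were drawn up with results of these data known. The cholesterol synthesis list had 2 of 24 members called lower and a median of -0.89, and the bile acid list 2 of 25 and -0.62. The peroxisome list had 1 of 24 called lower and a median of -0.62. Fatty acid oxidation and ketogenesis had 0 of 25 called by edgeR and by DESeq2, with 17 lower at an unadjusted p under 0.05 and a median of -0.66. Nuclear genes of the respiratory chain had 0 of 31 called by edgeR and 1 by DESeq2, with 22 lower at an unadjusted p under 0.05 and a median of -0.73, while the 13 mitochondrially encoded genes had a median near 0, whose sign changed in 10 of 20 alternative settings. Of 19 pericentral genes 3 were called lower by edgeR and 4 by DESeq2, with 10 lower at an unadjusted p under 0.05 and a median of -0.84. Of 15 periportal genes edgeR called 0 and DESeq2 6, with 9 lower at an unadjusted p under 0.05 and a median of -0.95. A difference between the zonation lists was not tested. General hepatocyte markers had a median of -0.53 with 5 of 11 lower at an unadjusted p under 0.05, and the summed CPM of the 11 was 80540, 86300 and 70570 at 12 weeks against 39820, 48780 and 75600 at 34 weeks. Mouse 6 of the 34-week group thus lay within the range of the 12-week mice. None of these medians changed sign in any alternative setting but that of the mitochondrially encoded genes, and the part of the hepatocyte marker level in the lower genes was not tested. Without 34-week mouse 4, fatty acid oxidation and ketogenesis had 9 of 25 lower at an unadjusted p under 0.05, with a median of -0.50. Nuclear respiratory genes then had 7 of 31 lower and a median of -0.62, and hepatocyte markers 3 of 11 and -0.31. Pericentral genes had 8 of 19 lower, periportal genes 8 of 15, and all genes tested 725.

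**Figure D3:**
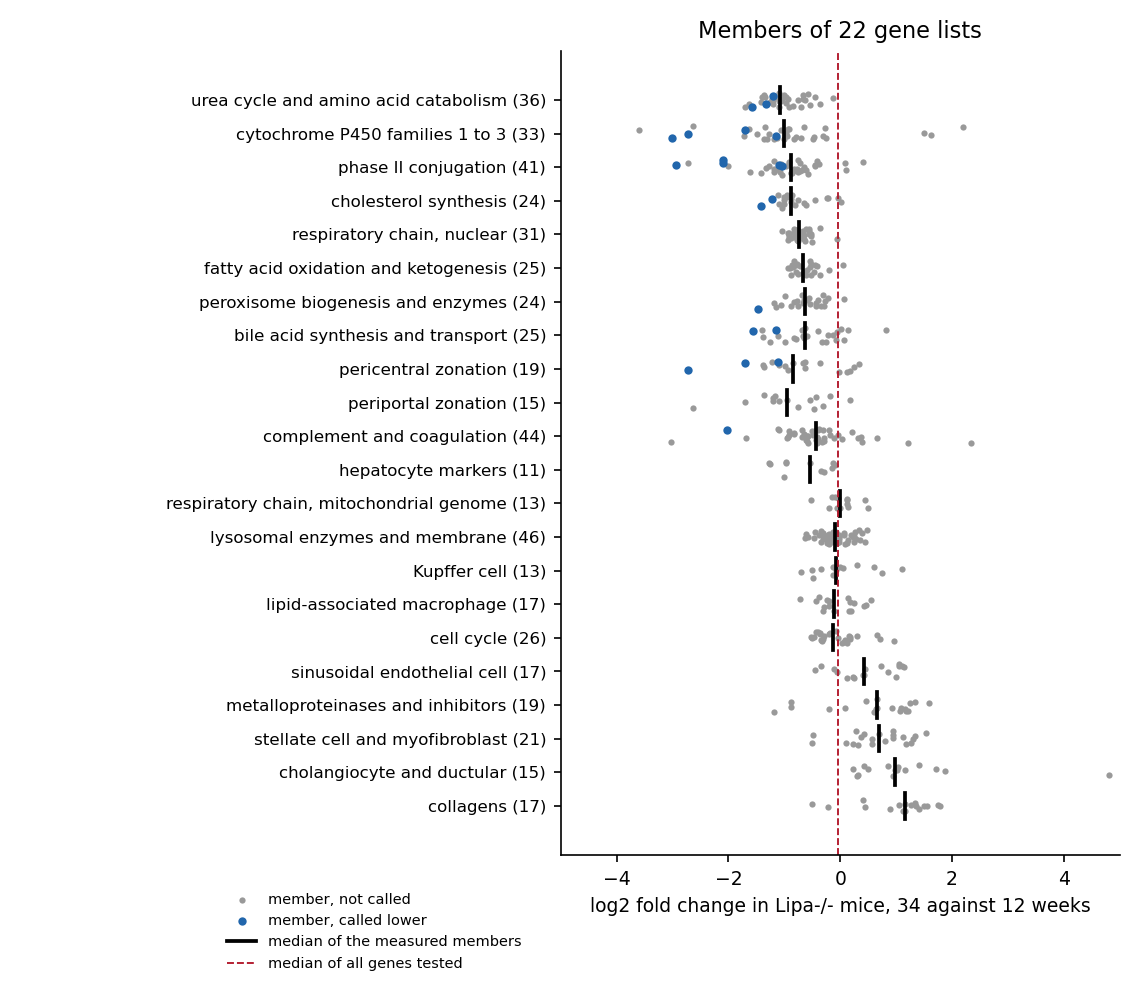
Log2 fold change of each measured member (points) of 22 gene lists, with the list's median (black bar), the median of all genes tested (red dashed line) and called members in blue; the number of measured members follows each list's name. Metabolic lists lie to the left, with medians from -1.08 for urea cycle and amino acid catabolism, and matrix lists to the right, up to 1.16 for collagens, with no called member.

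Collagens lay on the other side. None of the 17 measured collagens was called by edgeR's quasi-likelihood test and 6 were called higher by DESeq2, with 11 higher and 0 lower at an unadjusted p under 0.05, where 5.62% of all genes were higher. Their median log2 fold change was 1.16, and 0.97 without mouse 4, with 8 higher. Col1a1, the main chain of fibrillar collagen I, stood at 113, 175 and 177 CPM at 12 weeks and at 829, 326 and 443 CPM at 34 weeks. The time points did not overlap, and its log2 fold change was 1.78 with an adjusted p of 0.134 (edgeR's quasi-likelihood test, Benjamini-Hochberg). Col4a2 of basement membranes stood at 30.4, 46 and 29.3 CPM against 133, 71.2 and 104 CPM (log2 fold change 1.54). Col1a1 and Col4a2 were named after their values were seen. Col1a1 had the largest change of the list, and 2 of the 17 members had a log2 fold change below 0. Mouse 4 was the highest of the 6 mice in 14 of the 17 collagens. Summed over the list, the level was 1245, 1490 and 1405 CPM at 12 weeks and 3273, 1842 and 2353 CPM at 34 weeks, against 471 to 1024 CPM in the WT mice of both time points.

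Stellate cell, cholangiocyte and sinusoidal endothelial lists had medians above that of all genes, as had the lymphocyte, erythroid and pancreatic acinar lists described after them, and the megakaryocyte list lay at -0.03. Stellate cell and myofibroblast genes had a median of 0.70 with 7 of 21 higher at an unadjusted p under 0.05, and 0.40 with 2 without mouse 4. With all mice, 5.62% of all genes were higher at that threshold. Bgn, a matrix proteoglycan, stood at 218, 240 and 194 CPM against 598, 427 and 449 CPM. Summed over the stellate list, the level was 1391, 2335 and 1322 CPM against 2916, 2187 and 2416 CPM, with overlapping groups. Cholangiocyte genes had a median of 0.99 with 6 of 15 higher, and 0.75 with 2 without mouse 4. Their sum was 654, 2278 and 499 CPM against 1688, 1074 and 1864 CPM, also with overlapping groups. The keratin Krt7, named after its values were seen, stood at 0.505, 1.74 and 0.781 CPM against 4.26, 5.02 and 1.84 CPM. Sinusoidal endothelial genes had a median of 0.42 with 6 of 17 higher, and 0.27 with 4 without mouse 4. In these lists edgeR's quasi-likelihood test called 0 members, and DESeq2 called 1, 1 and 3 higher. The metalloproteinases and their inhibitors had a median of 0.66 with 8 of 19 higher, and 0.56 with 3 without mouse 4. Timp1 stood at 12.2, 21.7 and 18.4 CPM against 60.0, 36.4 and 35.5 CPM. The summed levels of the sinusoidal endothelial and metalloproteinase lists did not overlap between the time points.

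Macrophage and lymphocyte lists had 0 members called by edgeR's quasi-likelihood test. Cd68, the macrophage marker, stood at 325, 327 and 305 CPM at 12 weeks and at 304, 361 and 219 CPM at 34 weeks, with overlapping groups. Kupffer cell and lipid-associated macrophage lists had medians of -0.07 and -0.12, with signs that changed in 6 and 4 of 20 alternative settings. Both edgeR and DESeq2 called 0 of their 13 and 17 measured members, and 0 had an unadjusted p under 0.05. Monocyte and recruited macrophage genes had a median of -0.22, with 1 of 15 lower at an unadjusted p under 0.05 and 1 called by DESeq2. Over all genes, 9.96% were lower at that threshold. The T and NK cell list and the B and plasma cell list had medians of 0.15 and 0.24, with 0 of 16 members of each at an unadjusted p under 0.05 and 0 called by DESeq2. MHC class II genes, used by cells that present antigen, had a median of -0.61, with 2 of 13 lower at an unadjusted p under 0.05 and 0 called by DESeq2. Neutrophil genes varied between single mice: S100a8 stood at 42.8, 520 and 59.9 CPM at 12 weeks and at 99.7, 42.6 and 55.6 CPM at 34 weeks, so that mouse 9 alone lay high. The list's median of -1.56 turned to 0.26 without mouse 9. The 26 cell cycle genes had a median of -0.13, with a sign that changed in 3 settings, and 46 lysosomal genes had a median of -0.09, with a sign that changed in 2.

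**Figure D4:**
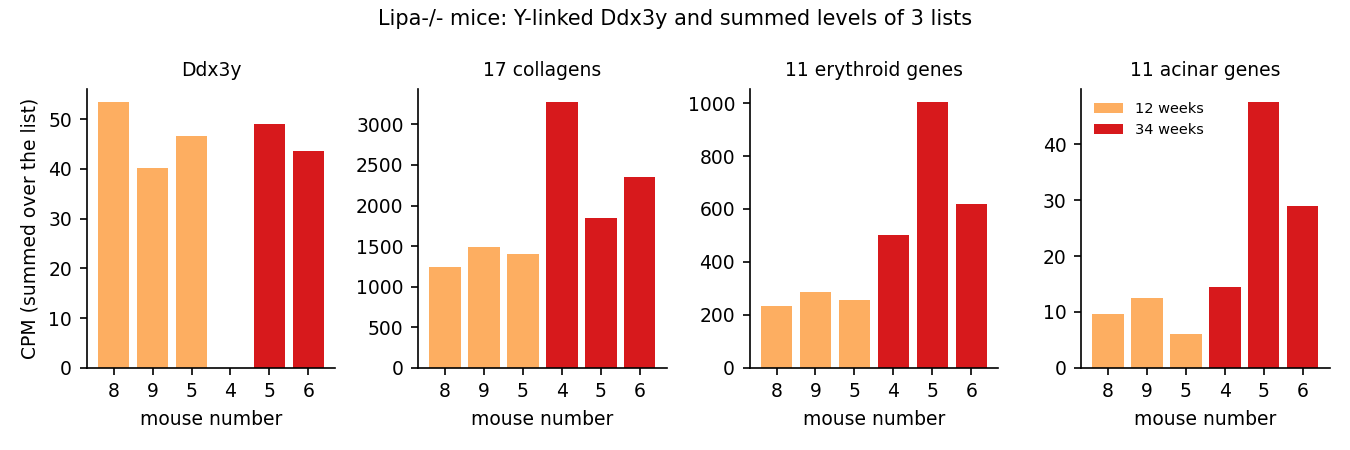
Bars give the CPM of the Y-linked gene Ddx3y and the summed CPM of 3 gene lists in each of the 6 Lipa-/- mice, labelled by mouse number (orange 12 weeks, red 34 weeks). Ddx3y is at 0 in mouse 4, whose collagen sum of 3273 CPM is the highest, while the erythroid and acinar sums are highest in mouse 5 of the 34-week group.

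Transcripts of blood and pancreas were also measured, and edgeR's quasi-likelihood test called 0 of the 11 erythroid and 0 of the 11 acinar genes. At an unadjusted p under 0.05, 2 erythroid genes were higher and 1 lower, and 8 acinar genes were higher. Over all genes, 5.62% were higher and 9.96% lower at that threshold. DESeq2 called 0 and 1. The list medians were 0.76 and 4.13. Erythroid genes summed to 235, 288 and 258 CPM at 12 weeks and to 502, 1003 and 619 CPM at 34 weeks, against 230 to 559 CPM in the WT mice. The 11 pancreatic acinar genes, digestive enzymes that liver does not make in quantity, summed to 9.67, 12.5 and 6.03 CPM and to 14.5, 47.5 and 28.9 CPM, and the WT mice held 15.8 to 96.2 CPM. Their part in the results above was not tested.

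The same contrast in WT mice gave 47 calls (0.323% of the genes tested), 32 higher and 15 lower. Of the 67 genes lower in the Lipa-/- mice, 46 had a WT log2 fold change below 0, with a range of -1.28 to 1.07 and a median of -0.09, against 0.07 over all genes. In the WT mice edgeR called 0 of them and DESeq2 called 2. At an unadjusted p under 0.05 in the WT mice, 8 of the 67 were lower (11.9%, against 2.51% of all genes) and 2 higher (2.99%, against 5.3%). Whether the change differed between Lipa-/- and WT mice was tested as the difference of both changes, and 9 genes (0.0619%) passed, with 1379 at an unadjusted p under 0.05. Of the 72 genes, Ces1f and Cyp3a25 were among these 9. Ces1f changed by -2.76 in the Lipa-/- mice and by 0.12 in the WT mice, a difference of -2.88 (edgeR's quasi-likelihood test with Benjamini-Hochberg adjustment, adjusted p = 0.0360), and its adjusted p was 0.149 without mouse 4. For Cyp3a25, a P450 of the steroid-oxidising 3A group, the Lipa-/- mice went from 147, 97.8 and 118 CPM to 53.8, 46 and 64 CPM, and the WT mice from 139 to 200 CPM to 318 to 444 CPM. The WT mice rose above their 12-week range while the Lipa-/- mice fell, a difference of -2.21 (edgeR's quasi-likelihood test with Benjamini-Hochberg adjustment, adjusted p = 0.00826, and 0.0440 without mouse 4). For the other 70 genes, a difference from the WT change was not shown.

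**Figure D5:**
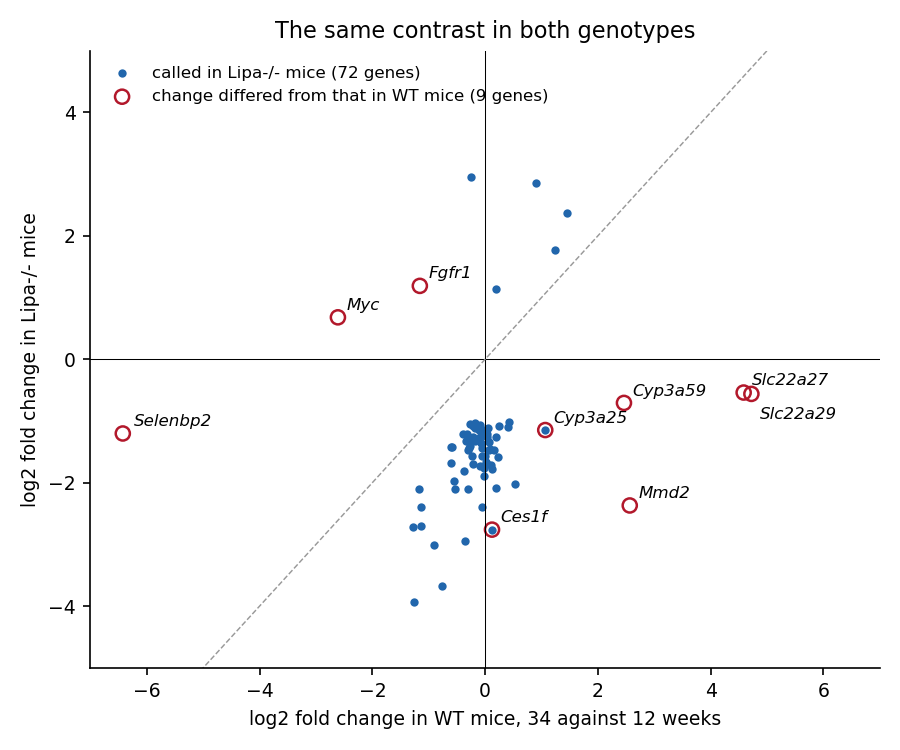
Log2 fold change of 34 against 12 weeks in untreated Lipa-/- mice (vertical axis) against that in WT mice (horizontal axis) for the 72 genes called in the Lipa-/- mice (blue) and the 9 genes whose change differed between the genotypes (red circles); the dashed line marks equal change. Most blue points lie near 0 on the WT axis and below -1 on the other, and Selenbp2, Slc22a27 and Slc22a29 lie far out on the WT axis.

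In the treated Lipa-/- mice, the contrast of 34 with 12 weeks called 4648 genes (32% of those tested), 2544 of them higher (17.5%). The 67 genes had log2 fold changes of -2.12 to 1.52 there, with a median of -0.46 and 55 below 0, and 14 were called. Of these, 13 were lower, which is 19.4% of the 67 against 14.5% of all genes, and 1 was higher, 1.49% against 17.5%.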

How the data were processed

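Liver poly(A) RNA of 18 mice was read from deposited gene tables. Reads had been quantified by the authors in Salmon, and tximport had collapsed transcripts to genes. The deposited values used are estimated counts, not scaled for depth, TPM, and mean effective gene lengths in bases, per the labels on GRCm39 with R 4.3.0 and DESeq2 1.40.1. Their own comparison table, with fold changes and p-values, was not used. Salmon divides reads between similar transcripts, so values of close paralogs depend on each other.

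Counts were rounded, and genes with more than 100 reads over the 18 mice were fitted as 6 group means with edgeR 4.0.16 (R 4.3.3, TMM, quasi-likelihood, Benjamini-Hochberg over 14535 genes), without a batch term, since study code and time point cannot be told apart. DESeq2 1.42.0 was an alternative. Principal components used log2 CPM with a prior count of 2. The scripts were tested on simulated data. Genes were named by rule: the 12 largest changes per direction at 5 CPM or more without overlap between time points, up to 4 called members per list or its 2 most abundant members by TPM where fewer than 2 were called, Lipa, human LIPA and Cd68, and up to 5 genes per direction whose change differed from WT. The role groups and the members of lists that are named for their values were chosen after those values were seen. The members and the 59 lists (1251 genes) were chosen with earlier results of these data known. Exact permutation of 3 against 3 mice cannot go below p = 0.1. The result for 1 further motif is not reported here.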

Additional observations from a re-analysis of the deposited data

Results flagged for a closer look

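The change from 12 to 34 weeks differed between untreated Lipa-/- and WT mice in 9 genes, tested as the log2 change in Lipa-/- mice minus that in WT mice by edgeR's quasi-likelihood test with Benjamini-Hochberg adjustment. With 3 mice per group, unusual single mice within a group were not tested.

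In several of the 9 genes the larger change was in the WT mice. Selenbp2, a selenium-binding protein, went from 460 to 1197 CPM to 9.54 to 11.8 CPM in the WT mice, and from 25.7 to 41.7 CPM to 9.82 to 23.3 CPM in the Lipa-/- mice, a difference of 5.22 (adjusted p = 0.00459 by edgeR, and 0.00896 without mouse 4). The organic anion carriers Slc22a27 and Slc22a29 rose in WT mice by 4.59 and 4.72 on the log2 scale, with differences of -5.12 and -5.28 (adjusted p = 0.00161 and 0.00826 by edgeR, and 0.00896 and 0.0246 without mouse 4), and the Lipa-/- groups overlapped in both. Cyp3a59 and Cyp3a25, neighbours in the Cyp3a family, differed by -3.17 and -2.21 (adjusted p = 0.0360 and 0.00826 by edgeR, and 0.149 and 0.0440 without mouse 4).

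Ces1f differed by -2.88, with log2 changes of -2.76 in the Lipa-/- and 0.12 in the WT mice, and Mmd2 by -4.93, with 5.21 to 7.2 CPM against 0.631 to 2.17 CPM in the Lipa-/- mice and 1.29 to 3.38 CPM against 12.0 to 17.7 CPM in the WT mice (adjusted p = 0.0360 by edgeR for both, and 0.149 without mouse 4). Myc, a growth-promoting transcription factor, differed by 3.29 and the growth factor receptor Fgfr1 by 2.35 (adjusted p = 0.0495 and 0.0360 by edgeR, and 0.159 and 0.149 without mouse 4). For Myc the larger change was in the WT mice, with log2 changes of -2.61 there and 0.68 in the Lipa-/- mice. Myc stood at 4.40 to 14.2 CPM against 0.826 to 2.02 CPM in the WT mice. In the Lipa-/- mice it stood at 9.90 to 12.0 CPM against 13.1 to 20.2 CPM. Fgfr1 stood at 12.4 to 15.9 CPM against 27.7 to 40.8 CPM in the Lipa-/- mice and at 4.21 to 5.60 CPM against 1.06 to 3.19 CPM in the WT mice.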

How the results depend on the processing

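The number of calls did not hold across the alternatives. The 72 called genes kept their direction and an unadjusted p under 0.05 in each, but they were selected in these same mice, so this is no independent check. Of 175 named genes, 0 of the 72 called and 43 of the 103 uncalled ones changed sign under at least 1 of 19 alternatives. The called ones were selected for their change, so these counts cannot be set against each other. DESeq2 with gene length offsets called 393 genes (160 higher, 233 lower), 171 differing from WT, 184 in WT and 106 list members (25 in the reported fit). Removing the trend with gene length gave 116 calls, 16 of them higher, and 23 differing from WT; edgeR with length offsets gave 2 higher and 4 differing; upper quartile scaling gave 17 higher and 51 lower. Total counts without TMM moved the median of all genes from -0.04 to 0.26 and gave 22 calls, 4 higher and 18 lower, with 8 list members, while relative to that median collagens and metabolic lists kept their sides. Without a filter there were 19 higher, 86 lower, 33 differing from WT and 86 in WT. At an adjusted p under 0.01, 13 calls were left, 0 higher and 13 lower, with 4 differing, 10 in WT and 4 list members. On the compared mice alone edgeR called 0 genes (0 higher, 0 lower, 0 list members; 1528 higher and 1505 lower at an unadjusted p under 0.05), 14 differing and 9 in WT, whereas DESeq2, chosen after seeing the data, called 608 on the 6 mice alone (365 higher, 243 lower, 144 list members). Leaving out 1 Lipa-/- mouse gave 4 to 262 calls: 4 without 34-week mouse 4, 6 without mouse 5, 262 without mouse 6, 15 without 12-week mouse 8, 109 without mouse 9 and 21 without mouse 5. The higher calls ranged from 0 to 29, the lower from 4 to 233, those differing from WT from 2 to 72, list members from 3 to 81 and WT calls from 30 to 49. Also chosen after seeing the data, DESeq2 without 34-week mouse 4 gave 0 higher, 68 differing and 40 list members, and edgeR without that mouse and 12-week mouse 5 gave 0 calls (0 higher, 0 lower, 0 list members; 612 higher and 707 lower at an unadjusted p under 0.05) and 1 differing. The cause of these shifts was not tested, beyond fewer mice or genes where the setting itself removes them.

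On the first principal component, the lowest 34-week mouse lay 10.8 above the highest 12-week mouse, -24.7 with the 500 most variable genes, where the time points overlapped, and 40.3 on log2(TPM + 0.5).

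No paired analysis was possible because the Lipa-/- groups share only mouse number 5. In WT and treated mice, whose numbers correlated by -0.253 to 0.46 and mark only a number, the replicate block gave 68 WT calls against 47 and 1704 treated calls against 4648, and 23 in the Lipa-/- contrast of the same fit (6 higher, 17 lower). At these depths, levels under about 0.1 CPM are near 3 reads.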

Other observations

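Immediate early genes had 0 members called by edgeR's quasi-likelihood test and a median log2 fold change of 0.44 with 4 of 25 higher at an unadjusted p under 0.05, and DESeq2 called 2. Over all genes, 5.62% were higher at that threshold. Fosb, a transcription factor induced by stimulation, stood at 1.2, 0.93 and 0.71 CPM in the 12-week Lipa-/- mice and at 18.5, 3.09 and 2.90 CPM in the 34-week ones, so that mouse 4 lay far above the others. It was named after its values were seen. The WT median of this list was -1.17.

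Male-biased liver genes had 1 of 23 members called, Mup3, lower, and a median of -0.99 in the Lipa-/- mice and of -1.35 in the WT mice, so both genotypes had lower medians at 34 weeks, and female-biased genes had medians of -0.42 and 2.38. A difference between these medians was not tested. Over all genes, 0.461% were called lower and 9.96% were lower at an unadjusted p under 0.05. Interferon-stimulated genes had a median of -0.51, with 5 of 38 lower at an unadjusted p under 0.05 and 0 called by edgeR and by DESeq2. Lipogenesis genes had a median of -0.55, with 5 of 20 lower, 0 called by edgeR and 1 by DESeq2, and Scd1, the main stearoyl-CoA desaturase of liver, stood at 4014, 3232 and 3399 CPM at 12 weeks and at 3355, 3660 and 4370 CPM at 34 weeks, with overlapping groups. In the complement and coagulation list Mbl2 was called lower, 1 of 44 measured, with a median of -0.43. In the list of cytokines and receptors Il1rap, the accessory chain of the interleukin-1 receptor, was called lower, 1 of 33 measured, at 66.7, 38 and 47.2 CPM against 17.9, 22.5 and 22.9 CPM, with a median of -0.01.

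In the list of oncofetal genes, Igf2 was called higher, 1 of 17 measured, against 0.0344% of all genes, and the list's median was 0.54. Gpc3, a fetal liver proteoglycan, stood at 3.34, 10.7 and 2.41 CPM against 23.8, 18.4 and 8.67 CPM, with overlapping groups, and Afp, alpha-fetoprotein, at 2.76, 7.88 and 2.24 CPM against 3.25, 3.13 and 6.21 CPM. Both were named after their values were seen.

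Haem and iron genes gave mixed values. Hamp, the hormone hepcidin, stood at 1156, 397 and 1620 CPM against 209, 853 and 429 CPM, and the globin genes Hba-a2 and Hbb-bs at 50.3, 59.0 and 66.5 CPM against 141, 270 and 159 CPM and at 93.9, 133 and 91.8 CPM against 205, 456 and 256 CPM.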
